A study of Mus musculus with 7 samples.

Results

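The 9 genes described here are used to recognise hematopoietic stem cells (HSCs) and their precursors, and all but Fgd5, whose product lies inside the cell, encode surface molecules and receptors: Kit, Cd34, Ptprc, Procr, Itga2b, Fgd5, Cd44, Cd27 and Flt3. They were taken by name, whatever their values, from the unfiltered count table, where they are 9 of 55487 genes. All 9 were found by their identifiers. The study's filter asks for 10 counts or more in 2 or more libraries of one group, which 7 of the 9 genes met and Procr and Cd27 did not. Their nascent RNA was followed through 7 libraries of GFI1+ cells of intra-aortic hematopoietic clusters (IAHC), the groups of blood-forming cells that bud from the wall of the dorsal aorta.

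KIT and FLT3 are receptor tyrosine kinases, each switched on by its own cytokine, KIT ligand or FLT3 ligand, that keep early blood cells alive and dividing. CD45, the product of Ptprc, is a tyrosine phosphatase that covers most blood cells and acts on kinases of the SRC family. CD34, CD44 and integrin αIIb (CD41, from Itga2b) serve in adhesion, and CD41 is one of the earliest surface signs that an endothelial cell of the embryo is turning to blood. In the embryonic aorta, cells gain CD41, KIT and CD45 in steps as clusters form, so that these molecules are used to grade precursors on the way to HSCs.

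The cells came from the aorta-gonad-mesonephros (AGM) region of mouse embryos at E11.5, of CD1 background with the Gfi1:tomato reporter, and were sorted as CD31+, cKIT+ and GFI1+. Since the sort selects on cKIT, the presence of Kit is no finding. All groups, the controls included, spent a night in compE, an inhibitor of γ-secretase, the protease that frees the active part of NOTCH receptors, and were then washed and divided into sets of 300 to 400 cells. For 4 h the sets were held with DMSO alone (washout, 3 libraries), with compE again (compE, 2 libraries) or with Fc-JAG1, a recombinant form of the NOTCH ligand JAG1 (Fc-JAG1, 2 libraries). EU, a uridine analog at 0.3 mM, was present during these 4 h, and the RNA that took it up was captured, amplified and sequenced. A library is named by its group and the number that the labels give as the embryo, and the study's methods treat libraries of one number as paired. By the study's account the cells were drawn from pools of embryos, so a number need not be 1 animal. Each set of cells is small and the libraries carry no molecular identifiers, so a count is a number of reads, not of molecules, and intervals on counts cover counting error only. Less RNA per cell and fewer expressing cells cannot be told apart in such bulk libraries.

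Total counts ran from 21652927 to 33974693. The libraries differed more in the number of genes seen than in depth, with 6265 to 12351 genes at 10 counts or more: washout 2, compE 2 and Fc-JAG1 1 had 90.5% to 94.2% of the tested genes at that level, against 56.2% in washout 1, 68% in washout 3, 71.1% in compE 1 and 69.9% in Fc-JAG1 3. Of the sorted proteins' genes, Kit had 6381 counts or more in every library, Pecam1, which encodes CD31, had only 18 in washout 1 and 11 in Fc-JAG1 3, and Gfi1 had 0 in 4 libraries. Runx1, a transcription factor of blood formation, had at least 16525 counts in every library. CPM is a gene's counts over an adjusted library size, scaled to a fixed total. That size is the library's counts in tested genes times TMM, a factor per library that evens out most genes. Of 7 further endothelial markers 2 (Cldn5 and Nos3) were at 0 throughout, and these 7 summed to at most 1.82 CPM in any library. Other genes of endothelium reached more: Esam 27.3 CPM in washout 2, Eng 55.9 in Fc-JAG1 3, Tek 20.3 in compE 2 and Cdh5 8.07 in washout 1. Emcn and Robo4 stayed at 2.33 CPM or less. The 9 erythrocyte markers summed to between 25.3 and 376 CPM, and those of mesenchyme, epithelium and neural cells to at most 17.8 CPM each.

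By GENCODE M21 on GRCm38, Kit (ENSMUSG00000005672) lies at chr5:75574916-75656722 on the plus strand and Flt3 (ENSMUSG00000042817) at chr5:147330741-147400489 on the minus strand. Ptprc (ENSMUSG00000026395) lies at chr1:138062861-138175708 on the minus strand and Cd34 (ENSMUSG00000016494) at chr1:194938819-194961279 on the plus strand. Cd44 (ENSMUSG00000005087) lies at chr2:102811141-102901665 on the minus strand and Procr (ENSMUSG00000027611) at chr2:155751117-155755471 on the plus strand. Itga2b (ENSMUSG00000034664) lies at chr11:102453297-102470122 on the minus strand and Fgd5 (ENSMUSG00000034037) at chr6:91978878-92076004 on the plus strand. Cd27 (ENSMUSG00000030336), at chr6:125232622-125237010 on the minus strand, lies wholly inside Vamp1, a gene of the plus strand.

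The place of Cd27 decides what its values can say. Cd27, a receptor of the tumour necrosis factor family, had 0 counts in all 7 libraries. Of 563 protein-coding genes that lie wholly inside a gene of the opposite strand and share no exon with it, 519 (92.2%) also had 0 counts in all 7 libraries, against 3823 (18.5%) of the 20695 protein-coding genes that lie inside no other gene. In the deposited table a nested gene was thus rarely given any count, and the 0 of Cd27 is no measurement of its RNA. No value of Cd27 is compared below. The remaining genes are overlapped over less of their length: none of Kit or Procr, 0.118% of Cd44, 1.34% of Flt3, 1.49% of Itga2b, 5.2% of Ptprc, 5.82% of Fgd5 and 24.6% of Cd34. For Cd34 the overlapping gene is the antisense gene Gm16897, which also covers 25.7% of its exon bases.

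The treatments act on NOTCH, whose active part works on DNA with the factor RBPJ, so the 250 bases before RefSeq's start of each gene were read for the RBPJ core TGGGAA, on both strands. Also searched were TGTGGT for the RUNX factors, AGATAA for the factors of the GATA family and AGGAAG for the ETS factors. The sequences are RefSeq's, on GRCm38.p6, and all 9 genes had an entry, of which the first is used for Kit and Ptprc. The RBPJ core was present in 21.5% of the windows of 27025 genes, the RUNX letters in 14.2%, the GATA letters in 10.3% and the ETS letters in 29.2%. Among the 9 genes, 2 held the RBPJ core, Cd44 with 2 copies and Itga2b with 1, and none held the RUNX letters. Shown are these 2 genes together with Kit, on which the cells were sorted, and Fgd5, which had the largest fitted difference, each 5′ to 3′ on the strand of the gene. Capitals mark the RBPJ, GATA and ETS letters or their reverse complements. In Cd44 an ETS match and an RBPJ match share 1 base. RefSeq's starts are not always GENCODE's: 71 bases of the Kit window and 87 of the Fgd5 window are a 5′ untranslated region by GENCODE, and these are not printed. Of the Itga2b window 239 bases lie inside the gene as GENCODE draws it, 180 of them in an exon of a transcript that does not code for protein, so most of it is not upstream by that annotation.
Cd44: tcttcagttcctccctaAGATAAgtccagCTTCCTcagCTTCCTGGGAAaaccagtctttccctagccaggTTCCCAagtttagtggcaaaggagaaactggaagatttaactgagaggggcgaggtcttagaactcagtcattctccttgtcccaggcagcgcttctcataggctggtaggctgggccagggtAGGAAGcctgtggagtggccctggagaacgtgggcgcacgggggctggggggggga
Itga2b: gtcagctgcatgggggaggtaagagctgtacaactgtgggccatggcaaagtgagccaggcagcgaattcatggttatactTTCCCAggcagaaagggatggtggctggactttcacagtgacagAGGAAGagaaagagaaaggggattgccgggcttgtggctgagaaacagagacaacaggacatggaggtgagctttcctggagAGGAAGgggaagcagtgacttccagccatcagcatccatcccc
Kit: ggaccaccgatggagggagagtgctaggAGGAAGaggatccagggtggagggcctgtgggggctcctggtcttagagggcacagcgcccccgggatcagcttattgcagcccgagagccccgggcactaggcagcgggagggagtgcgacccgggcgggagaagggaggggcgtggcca
Fgd5: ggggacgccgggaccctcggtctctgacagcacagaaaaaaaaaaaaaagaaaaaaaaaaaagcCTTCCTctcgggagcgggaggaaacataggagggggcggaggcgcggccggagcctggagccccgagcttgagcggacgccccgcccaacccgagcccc
The sequences shown are chr2:102901666-102901915 (Cd44) and chr11:102469884-102470133 (Itga2b), both of the minus strand, and chr5:75574737-75574915 (Kit) and chr6:91978715-91978877 (Fgd5), both of the plus strand. Over their full 250 bases, the windows of Fgd5 and Kit are rich in G and C, at 71.6% and 70.8%, against 56.4% in Cd44 and 54% in Itga2b. Such matches are descriptions of the letters, and no binding was measured here.

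**Figure D1:**
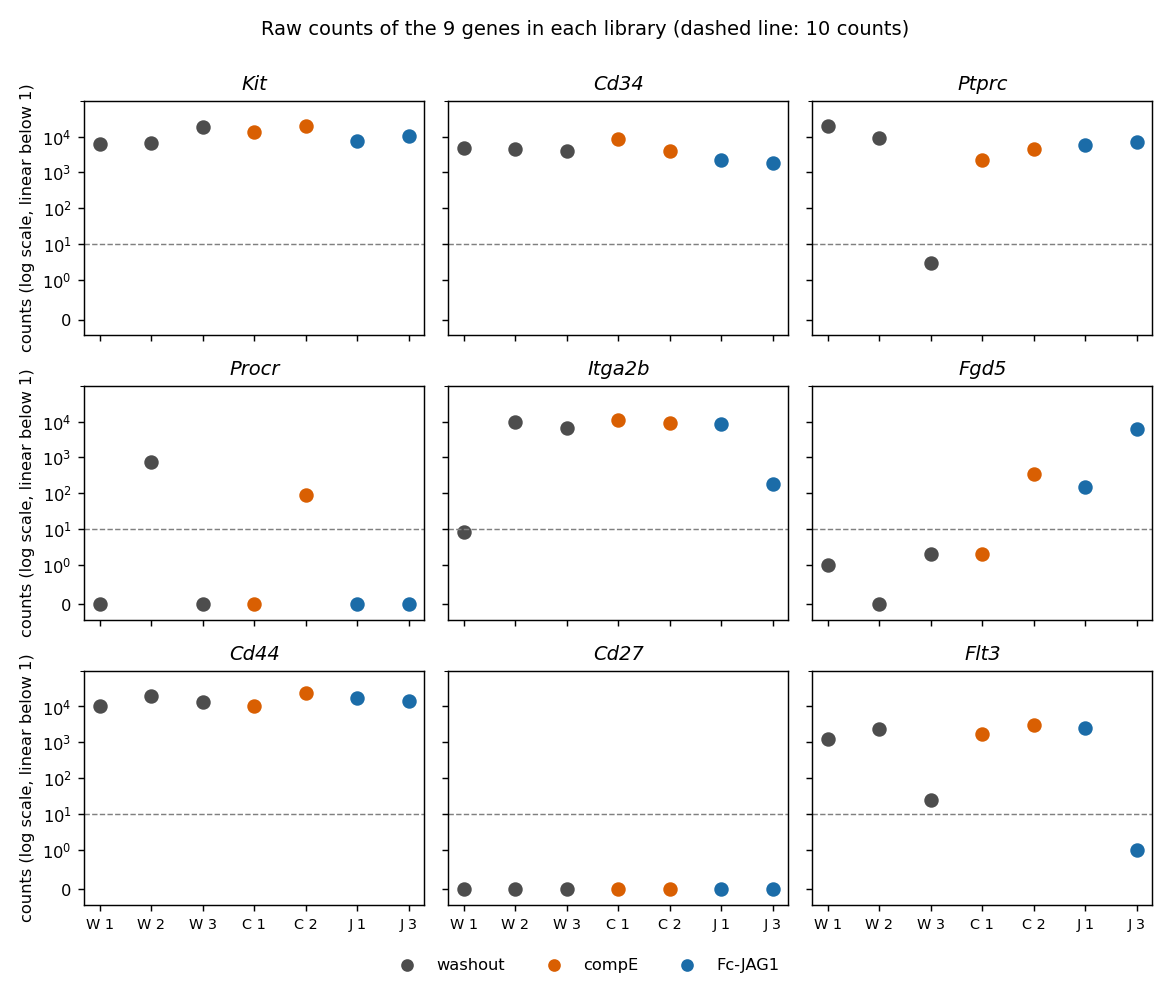
Raw counts of each of the 9 genes (vertical axis, log scale that is linear below 1) in the 7 libraries (W washout, C compE, J Fc-JAG1, with the library's number), 1 point per library. Kit, Cd34 and Cd44 stay at 1811 counts or more in every library, while the other genes fall under 10 counts in at least 1 library, and Cd27 is at 0 throughout.

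The genes fell into those recorded in every library and those that came and went. Kit, Cd34 and Cd44 had at least 10 counts in all 7 libraries, as did 3035 (29.4%) of the 10311 tested genes. Ptprc, Itga2b and Flt3 missed 10 counts in 1 library each, a different one in each case, and Fgd5 missed it in 4. Per library, 5 to 8 of the 9 genes reached 10 counts, with 5 in washout 1 and washout 3, 6 in compE 1 and Fc-JAG1 3, 7 in washout 2 and Fc-JAG1 1, and 8 in compE 2. The libraries with fewer of the 9 genes were those with fewer of all tested genes, as the bars of genes seen by library show.

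**Figure D2:**
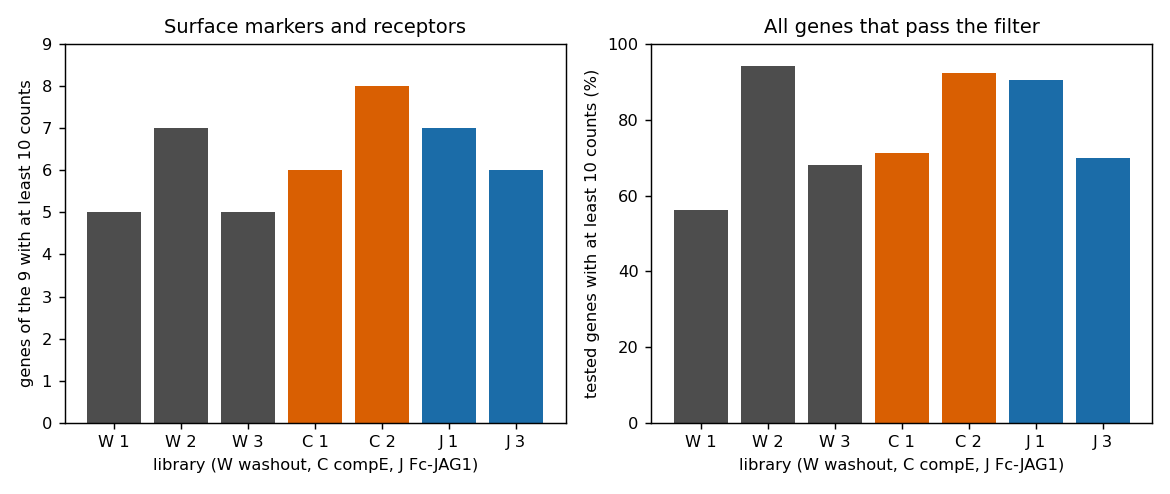
Number of the 9 genes with at least 10 counts (left) and percent of all tested genes with at least 10 counts (right) in each library (W washout, C compE, J Fc-JAG1). Washout 1 and washout 3 are lowest on both sides, at 5 genes with 56.2% and 68%.

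The level of a gene per length was computed as CPM, which includes the TMM scaling, per kilobase. The authors counted reads with the gene as the feature, so reads in introns enter the counts, and the length that matches this is that of the gene body. Per kilobase of gene body, Itga2b came first with a median over the 7 libraries of 13.9 CPM per kilobase, before Cd44 at 5.83, Cd34 at 5.61, Kit at 5.42, Ptprc at 1.43, Flt3 at 0.953 and Fgd5 at 0.000814. The order depends on the length that is used. Per kilobase of summed exons, Cd44 stood highest, at 77.9 CPM per kilobase, and it ranked between the 88.4 and 96.7 percentile of tested genes. Kit followed at 49.8, Itga2b at 42.9, Cd34 at 17.3, Flt3 at 10.8, Ptprc at 8.84 and Fgd5 at 0.0126 CPM per kilobase of exons. The ranges over libraries of each pair of neighbours in the order by exons overlapped. The range of Cd44 (61.6 to 89.3) lay above those of Cd34 (8.58 to 45.3), Flt3 (0.00686 to 12.3) and Fgd5 (0 to 42.2), and that of Kit (20.3 to 75.9) lay above that of Flt3.

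The design gives 3 comparisons. Against the washout, compE asks what renewed block of γ-secretase does, and Fc-JAG1 asks what added JAG1 does. The fits give Fc-JAG1 against compE as well. EdgeR's quasi-likelihood test, with the sample number as a block and p-values adjusted over all 10311 tested genes, called 0 of the 7 tested genes in each comparison at 0.05, as it did 0.0% of all tested genes. At an unadjusted p under 0.05 it had 0 of the 7 genes with compE (2.63% of all tested genes), 0 with Fc-JAG1 against the washout (5.1%) and 0 with Fc-JAG1 against compE (2.83%). Limma voom called 0 in each. DESeq2, the study's own test, called 1 of the 7, Fgd5, which met the filter through Fc-JAG1 alone, as higher with Fc-JAG1 than in the washout, where it called 16.9% of all genes higher and 5.11% lower. With compE it called 0 of the 7 (6.06% of all genes higher, 3.92% lower), and between Fc-JAG1 and compE 0 of the 7 (10.7% higher, 2.58% lower). Here and below, DESeq2's shares of all genes are over those that its rule allowed to be called. These were 9632 genes with compE, 9569 for Fc-JAG1 against the washout and 8839 for Fc-JAG1 against compE. The counts of tested genes beside them include some that could not be called, such as Fgd5 with compE. Both treated groups are compared with the same 3 washout libraries, so these comparisons are not independent of each other.

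Kit, the receptor on which the cells were sorted, had 6381, 6541 and 18971 counts in washout 1, 2 and 3. CompE 1 and 2 held 13796 and 19331 counts, and Fc-JAG1 1 and 3 held 7722 and 10470. In CPM, both Fc-JAG1 libraries lay below both compE libraries, and the washout spanned all 4 of them. In CPM, Kit was at 409 ± 250 in the washout (SD, n = 3), 522 ± 33 with compE and 328 ± 164 with Fc-JAG1 (SD, n = 2 each). The log2 fold change by edgeR was 1.01 (SE 1.09) for compE and −0.60 (SE 1.07) for Fc-JAG1, each against the washout. EdgeR's test fits no standard error. Each SE given for edgeR is the size of the log2 fold change over the square root of the test's F statistic. Within numbers, Kit was higher with compE than in the washout in both pairs, by 0.56 and 1.46 on the log2 CPM scale, and lower with Fc-JAG1 in both, at −0.81 and −0.61. Between Fc-JAG1 and compE the difference was −1.61 (SE 1.33, adjusted p = 1 by edgeR) and −1.85 by DESeq2 (SE 0.81, adjusted p = 0.119). None of these differences passed the threshold.

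Flt3, the receptor of FLT3 ligand and a sign of progenitors with lymphoid and myeloid potential, had 1238, 2312 and 24 counts in washout 1, 2 and 3. There were 1718 and 2942 in compE 1 and 2, while Fc-JAG1 1 and 3 held 2422 and 1. It was low in both libraries of number 3 and at similar levels in the other 5, where it lay between 64.1 and 75.9 CPM. The mean was 45.6 ± 38.9 CPM in the washout (SD, n = 3), 71.9 ± 5.65 with compE and 33.3 ± 47 with Fc-JAG1 (SD, n = 2 each). The log2 fold change by edgeR was 0.00 (SE 5.95) with compE and −0.32 (SE 2.93) with Fc-JAG1. The SE with compE is unreliable, as it is derived from a log2 fold change of 0.00. It was 1.79 by DESeq2 and 2.04 by limma voom. In compE there is no library of number 3, so its small spread rests on other samples.

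Ptprc, which encodes CD45, had 19875, 9338 and 3 counts in washout 1, 2 and 3. The counts were 2183 and 4498 in compE 1 and 2, and Fc-JAG1 1 and 3 held 5895 and 7149. Washout 3 stood apart with 3 counts, in a library with 33702 counts of Runx1 and 18971 of Kit. In CPM, Ptprc was at 471 ± 605 in the washout (SD, n = 3), 101 ± 21 with compE and 232 ± 99.7 with Fc-JAG1 (SD, n = 2 each). The mean was thus lower with Fc-JAG1 than in the washout, yet the fit with the sample number as a block gave a positive log2 fold change of 2.19 (SE 4.19), since Fc-JAG1 3 is set against washout 3. With no block it was −1.02, and without washout 3 or without Fc-JAG1 3 it was −2.33. With compE the log2 fold change was −2.05 (SE 1.77), and 1.42 without washout 1. DESeq2 made no call on Ptprc with all libraries. It called Ptprc higher with Fc-JAG1 than in the washout without washout 1 (7.38, adjusted p = 0.0292) and without Fc-JAG1 1 (11.44, adjusted p = 0.00327), and higher than with compE without Fc-JAG1 1 (14.10, adjusted p = 0.00345). Both Fc-JAG1 libraries lay above both compE libraries, with a ratio of mean CPM of 2.3. The fitted log2 fold change was 4.24 (SE 3.97, adjusted p = 1) by edgeR and 6.26 (SE 3.07, adjusted p = 0.178) by DESeq2. No compE library has number 3, so Fc-JAG1 3 enters these fits through washout 3. Without washout 3 edgeR gave 0.11 and with no block 1.20, and limma voom gave 0.91. The pair of number 1 differed by 0.91 on the log2 CPM scale. The 10 macrophage markers, whose cells also carry CD45, summed to between 40.4 and 452 CPM, with 314 in washout 3 where Ptprc had 3 counts. In washout 3 that sum came from Cd68, Lyz2 and Ctss, at 2275 counts or more, while the other macrophage markers had 7 or fewer. The part of such cells in the Ptprc values was not tested.

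Cd34, a sialomucin of early blood cells and of endothelium, had 4712, 4549 and 4012 counts in washout 1, 2 and 3. CompE 1 and 2 held 8359 and 3850 counts, and Fc-JAG1 1 and 3 held 2280 and 1811. The Fc-JAG1 libraries held the 2 lowest values of the 7. Cd34 was at 69.6 ± 9.99 CPM with Fc-JAG1 (SD, n = 2), against 181 ± 80.7 in the washout (SD, n = 3) and 215 ± 163 with compE (SD, n = 2). Against the washout the log2 fold change was −1.62 by edgeR (SE 2.00, adjusted p = 0.994) and −1.98 by DESeq2 (SE 1.10, adjusted p = 0.21), so the difference did not pass the threshold. Both pairs had the lower value with Fc-JAG1, at −2.13 and −0.90 on the log2 CPM scale. With compE the pairs went opposite ways, at 0.27 and −0.34.

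Cd44, the receptor of hyaluronan, was the steadiest of the 9 genes. It had 10362, 19050 and 12901 counts in washout 1, 2 and 3. There were 10549 and 23321 in compE 1 and 2, while Fc-JAG1 1 and 3 held 17730 and 14283. Its CPM differed by a factor of 1.45 between the highest and the lowest library. The group means were 530 ± 71 in the washout (SD, n = 3), 510 ± 131 with compE and 546 ± 83.7 with Fc-JAG1 (SD, n = 2 each), and the groups overlapped in every comparison. The log2 fold change by edgeR was −0.11 (SE 0.91) with compE and 0.11 (SE 0.90) with Fc-JAG1. The SD of its log2 CPM over the 7 libraries was 0.22, at the 0.0582 percentile of tested genes, whose median SD was 3.41.

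Itga2b, the αIIb chain of the fibrinogen receptor, had 8, 9519 and 6790 counts in washout 1, 2 and 3. The counts were 11056 and 9057 in compE 1 and 2, and Fc-JAG1 1 and 3 held 8373 and 184. Washout 1 and Fc-JAG1 3 were low, and these are also the libraries in which Pecam1 had 18 and 11 counts. The mean was 169 ± 146 CPM in the washout (SD, n = 3), 335 ± 144 with compE and 119 ± 157 with Fc-JAG1 (SD, n = 2 each). The log2 fold change from the washout by edgeR was 0.32 (SE 2.45) with compE and −1.25 (SE 2.99) with Fc-JAG1, and neither was called. The latter turned positive without Fc-JAG1 3 (3.25), washout 3 (3.33), washout 2 (0.76), compE 1 (0.83) or compE 2 (0.76), and the former turned negative without washout 1 (−1.36) or compE 1 (−0.20). Washout 3 and Fc-JAG1 3 are the only libraries of number 3, and washout 2 and compE 2 of number 2. With the block, leaving out either of such a pair is nearly the same fit. Itga2b is also a gene of megakaryocytes. The 6 megakaryocyte markers (Pf4, Ppbp, Gp1ba, Gp9, Gp5 and Vwf) summed to 0.581 CPM in washout 1, 0.321 in washout 3 and 0.672 in compE 1, where Itga2b was at 0.464, 242 and 437 CPM. They summed to between 140 and 429 CPM in washout 2, compE 2 and Fc-JAG1 1, where Itga2b was at 230 to 264 CPM, and to 86 in Fc-JAG1 3, where it was at 7.79 CPM. In Fc-JAG1 3 that sum was nearly all Gp5, at 2017 counts, with Vwf at 13 and the other megakaryocyte markers at 0. The part of such cells in the Itga2b values was not tested.

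Procr, which encodes the endothelial protein C receptor (CD201), a marker of cells on the way to HSCs, had 0, 742 and 0 counts in washout 1, 2 and 3. CompE 1 and 2 held 0 and 87 counts, and both Fc-JAG1 libraries held 0. It was seen in 2 libraries of number 2 only, and these are the 2 with the most genes at 10 counts or more. The Fc-JAG1 group has no library of number 2 here. A count of 0 allows up to 3 counts, which is 0.0823 CPM in Fc-JAG1 1 and 0.127 in Fc-JAG1 3. Procr is 1 of 385 genes of the raw table that reached 10 counts in those 2 libraries alone, and it was not tested.

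Fgd5, a guanine nucleotide exchange factor of CDC42 that lies inside the cell and whose gene is used to mark HSCs, had 1, 0 and 2 counts in washout 1, 2 and 3. There were 2 and 341 in compE 1 and 2, while Fc-JAG1 1 and 3 held 151 and 6271. The 3 washout libraries were all at 2 counts or fewer, washout 2 included, which had 94.2% of tested genes at 10 counts or more. Both Fc-JAG1 libraries lay above every washout library, and 97.6% of their counts came from Fc-JAG1 3. The level was 0.0431 ± 0.0379 CPM in the washout (SD, n = 3), 4.44 ± 6.17 with compE and 135 ± 185 with Fc-JAG1 (SD, n = 2 each). With 3 counts in the washout, the ratio of Fc-JAG1 to the washout was 2900 (exact 95% counting interval 992 to 14100), and that of Fc-JAG1 1 alone 112 (37.7 to 551). The ratio of compE to the washout was 145 (49.3 to 708), and it came from 1 library: compE 2 alone gave 239 (80.9 to 1160) and compE 1 alone 2.14 (0.179 to 18.7). These intervals leave out the spread between libraries, and in both treated groups the SD is larger than the mean.

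Fgd5 entered the tests through Fc-JAG1 alone, the 1 group in which 2 libraries reached 10 counts, so it was tested because it was high there, and its call with Fc-JAG1 is given as a description. DESeq2 called Fgd5 higher with Fc-JAG1 than in the washout, at a log2 fold change of 9.87 (SE 2.29, adjusted p = 0.000412). EdgeR gave 12.22 (SE 5.93, unadjusted p = 0.0521 by the quasi-likelihood test, adjusted p = 0.828), and over the other settings tried apart from DESeq2 the adjusted p ran from 0.223 to 1. DESeq2 also called Fgd5 without washout 1, washout 2, compE 1 or compE 2 and with no block, which adds no support to a gene tested for being high. It was not called without washout 3 (log2 fold change 7.26, adjusted p = 0.164) or without Fc-JAG1 3 (7.32), where no call was possible. Number 3 holds only these libraries, so with the block the one that remains has no partner to be compared with. These are thus not separate checks, and neither are the fits without washout 2 and without compE 2. Without Fc-JAG1 1 the adjusted p was 0.00668, but 1 library with 10 counts remained, under the minimum of 2 for a call. Against the washout, compE gave 6.22 by DESeq2 (SE 2.32, adjusted p = 0.0667) and 7.44 by edgeR (SE 7.53, adjusted p = 1). Fc-JAG1 against compE gave 3.64 by DESeq2 (SE 2.60, adjusted p = 0.427) and −1.81 without compE 1, so Fc-JAG1 was not shown to differ from compE in Fgd5. Only 62 tested genes (0.601%) reached 10 counts in compE 2, Fc-JAG1 1 and Fc-JAG1 3 and in no other library.

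**Figure D3:**
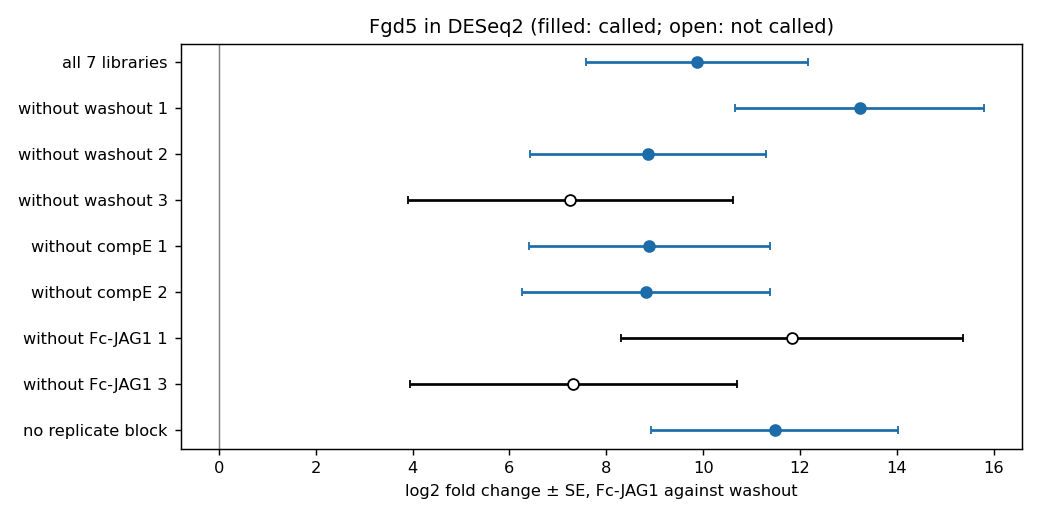
Log2 fold change of Fgd5, Fc-JAG1 against washout, by DESeq2 with its standard error (horizontal axis), with all 7 libraries, without each library in turn and with no replicate block. Filled points were called and open points were not. The fits without Fc-JAG1 1 or Fc-JAG1 3 could give no call. The estimate runs from 7.26 to 13.23. Fgd5 was tested because it was high with Fc-JAG1, so estimates above 0 are no support.

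As a group, 5 of the 7 tested genes had a positive log2 fold change by edgeR with compE, Flt3 at 0.00 among them, and 3 by DESeq2. With Fc-JAG1, 3 were positive against the washout and 3 against compE by edgeR, and 2 and 2 by DESeq2. The median log2 fold change of the 7 by edgeR was 0.15 with compE, against −0.10 over all tested genes. It was −0.32 with Fc-JAG1, against 0.44, and −0.32 for Fc-JAG1 against compE, against 0.43. The median of all genes with Fc-JAG1 is itself moved by scaling, from 0.44 with TMM to 0.07 with the size factors of DESeq2 and 0.71 with total counts only, and to −0.16 with no block, so differences of that size say nothing of a single gene. Counted by libraries that do not overlap, 1 of the 7 was higher with compE than in the washout, Fgd5 (10.9% of all tested genes were higher and 6.79% lower). Fgd5 counts here only by scaling, since compE 1 and washout 3 both held 2 counts, at 0.0791 and 0.0713 CPM. With Fc-JAG1 against the washout 1 was higher, Fgd5, and 1 lower, Cd34 (10.5% and 6.85%). Between Fc-JAG1 and compE 1 was higher, Ptprc, and 4 were lower, Kit, Cd34, Itga2b and Flt3 (15.0% and 15.4%). Flt3 too counts here only by scaling, with Fc-JAG1 1 at 66.5 and compE 1 at 67.9 CPM. By total counts in place of TMM these were 74.1 and 60.5, so the groups overlapped. Its other Fc-JAG1 value is of number 3, which compE lacks. Kit, Cd34, Itga2b and Flt3 had log2 fold changes by edgeR of −1.77 to −0.32 with standard errors of 1.33 to 3.04.

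**Figure D4:**
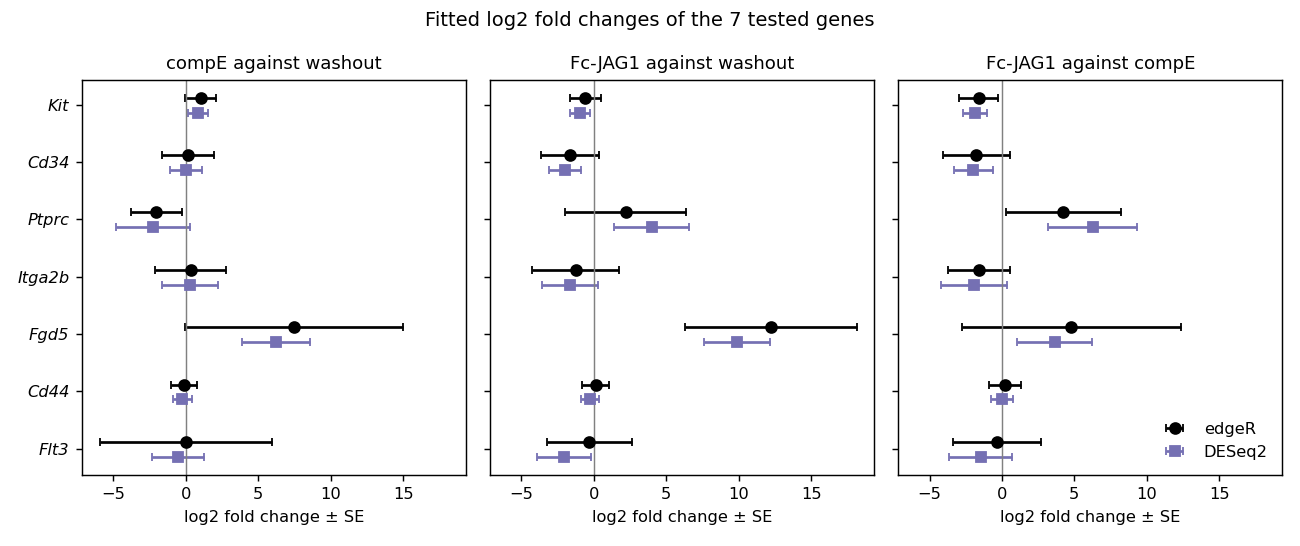
Fitted log2 fold changes with standard errors (horizontal axis) of the 7 tested genes in the 3 comparisons, by edgeR (black circles) and DESeq2 (purple squares). The error bars of edgeR are derived from its test statistic. Kit and Cd44 have the shortest error bars and Fgd5 the largest shift with Fc-JAG1 against the washout, 12.22 by edgeR and 9.87 by DESeq2.

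The genes also differed in how far they spread between libraries. The SD of log2 CPM over the 7 libraries was 0.22 for Cd44, 0.71 for Kit and 0.90 for Cd34, at the 0.0582, 5.38 and 9.42 percentiles of all tested genes. It was 3.64 for Itga2b, 3.89 for Flt3, 4.10 for Ptprc and 4.45 for Fgd5, at the 55.3, 63.3, 70.4 and 81.4 percentiles. The first 3 and the last 4 lie on either side of the sparse middle of the distribution over all tested genes.

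**Figure D5:**
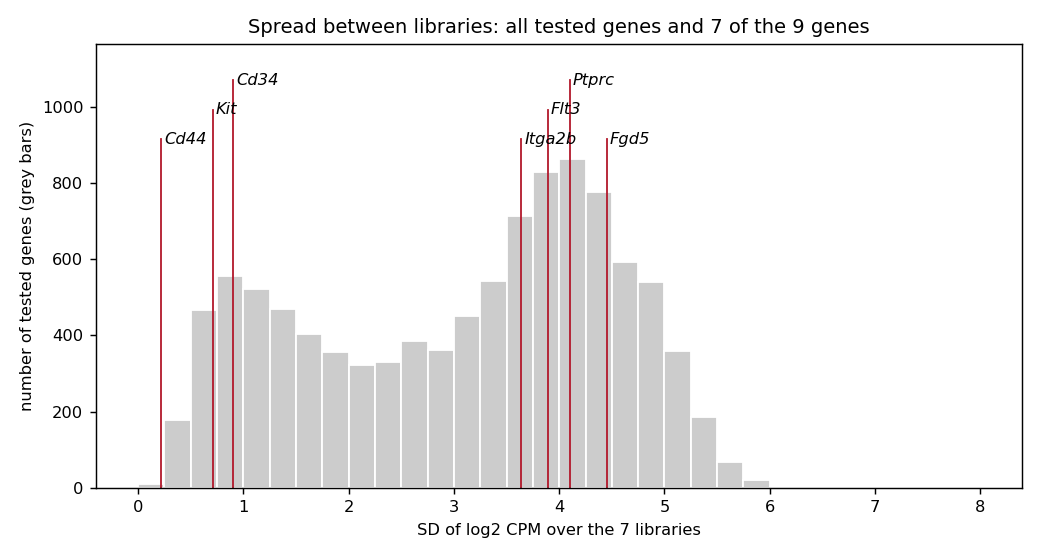
Standard deviation of log2 CPM over the 7 libraries (horizontal axis) for all tested genes (grey bars, number of genes) and for the 7 tested genes of the 9 (red lines). Cd44, Kit and Cd34 lie at 0.22 to 0.90 and the other 4 at 3.64 to 4.45.

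The profile of each gene over the 7 libraries was compared with those of 8117 genes of at least 10 mean CPM, by the root mean square difference of centred log2 CPM, where 0 is an identical profile. The nearest to Kit were Jmjd1c (0.30) and Dgkz (0.33), and to Cd34 Dock8 (0.25) and Rfc1 (0.27). Nearest to Cd44 were Ptma (0.17) and Gm1821 (0.19). Ptprc had Alg8 (0.50) and Ankrd13b (0.58) nearest to it, both also at 2 counts or fewer in washout 3. Itga2b was nearest to Rbm10 (0.40) and Tgfbr1 (0.51), which had 2 and 3 counts in washout 1, and Flt3 to Cxxc5 (0.53) and Vps33a (0.74), which had 1 and 2 counts in Fc-JAG1 3. Fgd5 was nearest to 1700056N10Rik (0.54), with 0 counts in 4 libraries and 168, 50 and 1743 in compE 2, Fc-JAG1 1 and Fc-JAG1 3, and to 9130019P16Rik (0.93). Among themselves the closest pairs of the 7 were Kit with Cd44 (0.71) and Kit with Cd34 (0.85). These are descriptions over 7 libraries that share their differences in genes seen.

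Genes that work with the 9 were followed in 4 lists, each read beside the shares of all genes that DESeq2 called. Of 21 other surface markers of stem and progenitor cells, 12 were tested, and DESeq2 called 1, Cd93, a C-type lectin receptor, as lower with Fc-JAG1 than in the washout (5.11% of all genes) and than with compE (2.58%). Cd93 had 2733, 804 and 3144 counts in washout 1, 2 and 3. The counts were 7693 and 883 in compE 1 and 2, and both Fc-JAG1 libraries held 0. Against 3 counts per library, it was at least 934-fold lower with Fc-JAG1 than in the washout and at least 1560-fold lower than with compE. These bounds cover counting error only. DESeq2 gave adjusted p-values of 3.19e-09 and 3.13e-07, and edgeR's quasi-likelihood test unadjusted p-values of 0.0235 and 0.0236 that were 0.828 and 1 when adjusted. Cd93 met the filter through the washout and compE alone, the groups in which it was higher, so that its calls are descriptions. Prom1, which encodes CD133, had the smallest edgeR p of this list with compE, at a log2 fold change of −6.89 (SE 2.64, unadjusted p = 0.016 by the quasi-likelihood test, adjusted p = 1), from 1 and 2 counts with compE and 2, 369 and 7 in the washout. Prom1 met the filter through Fc-JAG1 alone, at 13 and 14 counts. The others that the naming rule takes are Cd81 with compE (−2.91, SE 1.99) and Tek, the angiopoietin receptor, with Fc-JAG1 (5.32, SE 3.14), neither called by any test.

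Of 14 cytokine receptors and receptor kinases of the KIT class, 12 were tested. DESeq2 called 3 of the 12 higher with Fc-JAG1 than in the washout (16.9% of all genes), the erythropoietin receptor gene Epor, the G-CSF receptor gene Csf3r and the shared IL-6 family receptor gene Il6st. All 3 had 2 counts or fewer in washout 3 but were plainly seen in washout 2, where Epor had 2148, Csf3r 1407 and Il6st 1244, so the groups overlapped. With Fc-JAG1 the counts were 1223 and 329 for Epor (log2 fold change 9.75 by DESeq2, adjusted p = 0.00179), 1693 and 33 for Csf3r (6.14, adjusted p = 0.0309) and 1030 and 4947 for Il6st (6.53, adjusted p = 0.0193). Of the groups compared, Epor and Csf3r met the filter only through Fc-JAG1, so that their calls are descriptions. DESeq2 called 3 of the 12 lower with compE (3.92% of all genes), Il6ra, Il7r and Il1r1. Of these, Il7r and Il1r1 met the filter through the washout alone, the group in which they were higher, so that their calls are descriptions. Il6ra met the filter through the washout and Fc-JAG1 but not through compE, so that its calls against compE are descriptions too. Il7r was at 0 and 1 counts in compE 1 and 2, and at 43, 684 and 1 in the washout (edgeR log2 fold change −9.30, unadjusted p = 0.0339 by the quasi-likelihood test, adjusted p = 1). Il6ra, with 1 and 186 counts with compE and 1521 and 1428 with Fc-JAG1, was also called higher with Fc-JAG1 than with compE (1 of the 12, against 10.7% of all genes). Il1r1, the interleukin-1 receptor gene, was at 16 and 6 counts with compE and at 2, 1288 and 44 in the washout. Csf2rb2 had the second smallest edgeR p of the list against the washout, at −1.53 (SE 0.88) with compE and −1.02 (SE 0.65) with Fc-JAG1. Csf2rb2 and Csf2rb are near copies of each other, so their uniquely mapped counts are uncertain.

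Of 23 ligands and partners of the 9 molecules, 14 were tested. The ligand genes were hardly seen: Kitl had at most 4 counts in any library, and Flt3l and Cd70 at most 1. DESeq2 called Ezr, which encodes ezrin, a linker of CD44 to actin, higher with Fc-JAG1 than in the washout (6.59, adjusted p = 0.00972) and than with compE (7.40, adjusted p = 0.0261). Ezr had 4809 and 3351 counts with Fc-JAG1, 6 and 3970 with compE, and 1, 4146 and 13706 in the washout, so the washout values spanned those with Fc-JAG1. In CPM both Fc-JAG1 libraries, at 132 and 142, lay above both compE libraries, of which compE 1 was at 0.237. Ezr was the 1 gene of the 14 called higher in each of these comparisons (16.9% and 10.7% of all genes). Between Fc-JAG1 and compE, Ezr met the filter through Fc-JAG1 alone, so that call is a description. Of the relatives of Fgd5 in the list, Fgd6 was called higher with compE (9.08, adjusted p = 0.00866) and lower with Fc-JAG1 than with compE (−10.26, adjusted p = 0.0119), from 7173 and 187 counts with compE, 2 in each Fc-JAG1 library and 2, 951 and 1 in the washout. Fgd6 met the filter through compE alone, the group in which it was called higher, so that these calls are descriptions. It was the 1 gene of the 14 called in each of these directions (6.06% and 2.58% of all genes). Fgd2, Fgd3 and Fgd4 were not called, and Fgd1 was not tested. The smallest edgeR p-values of this list against the washout belonged to F2r (−3.53, SE 2.56) and Fgd4 (2.61, SE 2.60) with compE, and to Itgb3 (2.37, SE 1.99) and Cdc42 (−1.89, SE 1.73) with Fc-JAG1, all above 0.05 without adjustment.

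Of 34 signalling proteins downstream of KIT, FLT3 and CD45, 33 were tested. DESeq2 called 5 of the 33 higher with Fc-JAG1 than in the washout, a share close to the 16.9% of all genes, so this is no result about the list. Those called include the adaptors Shc1 and Sh2b3 and the phosphoinositide 3-kinase genes Pik3ca and Pik3r1. In washout 3 these 4 had 11 counts or fewer, and in washout 2 they had 772 or more. Their DESeq2 log2 fold changes with Fc-JAG1 ran from 4.43 to 11.47, with adjusted p-values from 0.00087 to 0.0498. Of the groups compared, Shc1 and Sh2b3 met the filter only through Fc-JAG1, so that their calls are descriptions. With compE, Pik3ca, Sh2b3 and Plcg1 were called higher (3 of 33, against 6.06% of all genes) and Ptpn11 and Src lower (2 of 33, against 3.92%). The counts of Plcg1, a phospholipase, were 494 and 112 in compE 1 and 2, and 0, 0 and 1 in the washout (edgeR log2 fold change 16.71, unadjusted p = 0.00663 by the quasi-likelihood test, adjusted p = 1). Plcg1 met the filter through compE alone, the group in which it was called higher, so that these values are a description. Ptpn11, which encodes the phosphatase SHP2, was at 0 and 4293 counts in compE 1 and 2, and at 14175, 9720 and 1892 in washout 1, 2 and 3. Src, a kinase that CD45 acts on, was at 2 and 1086 counts in compE 1 and 2, and at 3400 or more in each washout library. Between compE and the washout, Ptpn11 and Src met the filter through the washout alone and Sh2b3 through compE alone. The calls of these genes with compE are thus descriptions. Plcg2, the second phospholipase gene, had an edgeR log2 fold change of 1.24 (SE 0.70) with compE. The medians of this list by edgeR, 0.29 with compE and 0.22 with Fc-JAG1, stood beside −0.10 and 0.44 for all tested genes. EdgeR called 0 genes of any list in any comparison, and the numbers of genes it put under an unadjusted p of 0.05 were 0 or 1 for each list and comparison.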

How the data were processed

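Nascent RNA of sorted GFI1+ cells was counted in 7 libraries. By the methods, the authors used cutadapt 4.2 for trimming, STAR 2.7.8 for alignment to GRCm38 and featureCounts of Subread 2.0.1 to count uniquely mapped reads with the gene, introns included, as the feature. Whether strand was used is not given in the sources used here. The deposited counts are whole numbers for 55487 genes with no normalization, and all values here come from them. The authors' log2 values, made with DESeq2 1.38.3, were not used, and a further Fc-JAG1 library was not analysed here. The sources differ on the doses of compE and Fc-JAG1, which are left out.

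The 10311 genes that reach 10 counts in 2 or more replicates of one group were fitted in R 4.3.3 with edgeR 4.0.16 (TMM, quasi-likelihood test, sample number as block, all 7 libraries). DESeq2 1.42.0 and limma 3.58.1 (voom) were alternatives. P-values were adjusted by Benjamini and Hochberg over all tested genes, with a threshold of 0.05; a DESeq2 call also needed 10 counts in 2 replicates of a condition compared. Log2 CPM used a prior count of 2. The numbers pair the samples by the methods, and the labels name an embryo by each. Deviations of libraries of the same number correlated at −0.0854 to 0.0915 (5 pairs). The tests were checked on simulated counts. Genes and exons are those of GENCODE M21, and promoters are RefSeq's. Besides the 9 genes, the text names the genes of the gate, the 2 nearest profiles of each tested gene, and of each list those that DESeq2 called and the 2 of smallest edgeR p per comparison, except for an item that is not reported here. Other genes (Runx1, the markers, Esam, Eng, Cdh5, Emcn, Robo4, Vamp1, Gm16897, the ligand genes, Fgd1 to Fgd4 and Csf2rb) were named after their values were seen. The genes and lists were chosen with earlier results of these data known. Leaving out each library under DESeq2, and its fit with no block, were added after the data were seen. Replicates are separate sets of cells, of which the spread may be technical in part. Figures were drawn with matplotlib 3.10.9.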

Additional observations from a re-analysis of the deposited data

How the results depend on the processing

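Over the edgeR alternatives, limma voom included, 0 of the 7 genes were called in each comparison, and DESeq2 called 1, Fgd5, with Fc-JAG1 against the washout. For that comparison, leaving out a library gave 0 to 2 DESeq2 calls. Without washout 1 these were Fgd5 and Ptprc, and without Fc-JAG1 1 the single call was Ptprc, which was then also the 1 call of Fc-JAG1 against compE (0 to 1 over the libraries). No library left out gave a call with compE. With no replicate block, DESeq2 and edgeR made the same number of calls as with it in each comparison.

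Of 294 fitted values, 39 changed sign, none of them called. With DESeq2, the log2 fold change with compE became −0.01 for Cd34 and −0.57 for Flt3, and Cd44 became −0.27 with Fc-JAG1 and −0.01 against compE. In edgeR scaled by DESeq2's size factors these were −0.01, −0.20, −0.27 and −0.01. With limma voom, Cd44 (0.13) and Flt3 (−0.30) changed with compE and Ptprc (−0.24) with Fc-JAG1. With no replicate block, Ptprc with Fc-JAG1 was −1.02. With total counts only, Flt3 was 0.07 with Fc-JAG1 and 0.05 against compE. With no filter and with 10 counts in 2 of 7 libraries, Flt3 with compE was −0.13 and −0.04. Leaving out each library gave, with compE, −2.78 to 1.42 for Ptprc, −1.36 to 3.37 for Itga2b, −0.36 to 0.22 for Cd44, −0.30 to 0.22 for Flt3 and −0.36 to 0.55 for Cd34. With Fc-JAG1 it gave −2.33 to 11.41 for Ptprc, −4.96 to 3.33 for Itga2b and −0.14 to 0.48 for Cd44, and against compE −8.32 to 1.03 for Itga2b and −0.08 to 0.57 for Cd44. Kit and Fgd5 kept their signs in all of these, while under DESeq2 without compE 1 Fgd5 with Fc-JAG1 against compE was −1.81. The causes were not tested. Scaling by total counts exchanged the places of Kit and Itga2b, and of Ptprc and Flt3, in the order by exon length.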
